A study of Homo sapiens with 6 samples.

Results

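The genes described here are 10 genes of iron uptake, storage and export, chosen by symbol from a count table of 27685 genes in Caco-2 cells, and all 10 were found and tested. Caco-2 is a much-used line of human colorectal adenocarcinoma that can differentiate towards absorptive enterocytes. One group carried hFABP1as, a construct antisense to FABP1 (a cytosolic fatty acid carrier), with the genotype given as FABP1_knockdown, and the reference group was mock-transfected with the empty vector pcDNA3, with the genotype given as WT. Each group had 3 libraries of polyA RNA, named below by the numbers 2, 3 and 4 of their column headers. The number of transfected lines or clones behind each group is not stated in the labels, and an effect of the construct cannot be told apart from a difference between such lines.

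Iron enters an enterocyte from the gut after reduction by CYBRD1 and passage through the importer SLC11A2 (DMT1), and from the blood side through the transferrin receptor TFRC. Inside the cell it is stored in ferritin, a shell of heavy (FTH1) and light (FTL) chains, or it leaves through ferroportin (SLC40A1) with the help of the copper oxidase hephaestin (HEPH). FLVCR1 is a transporter known for heme export. The iron regulatory proteins IRP1 (ACO1) and IRP2 (IREB2) bind iron-responsive elements, short RNA hairpins, when iron is scarce: binding upstream of the coding sequence blocks translation and binding downstream of it stabilises the mRNA.

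The hairpins are shown because they sort the measured mRNAs into those known to be controlled at translation (FTH1, FTL, SLC40A1) and those controlled through mRNA stability (TFRC and part of SLC11A2). A search of GENCODE release 29 transcripts for a bulged C, 5 bases, the loop letters CAGTGN with the last base other than G, and 5 bases closing the stem found matches in these mRNAs. Capitals mark the bulged C and the loop, and each sequence runs 5′ to 3′ over 29 bases of the RNA strand, written with T. The first lies in the 5′ untranslated region of FTL at chr19:48965335-48965363 on the plus strand and the next in that of SLC40A1 at chr2:189580661-189580689 on the minus strand, both in build GRCh38.
FTL: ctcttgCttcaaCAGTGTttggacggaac
SLC40A1: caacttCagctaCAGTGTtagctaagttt
TFRC had 4 matches in its 3′ untranslated region on the minus strand of chromosome 3, from the 5′ end of the transcript at chr3:196050979-196051007, chr3:196050575-196050603, chr3:196050510-196050538 and chr3:196050463-196050491.
TFRC site 1: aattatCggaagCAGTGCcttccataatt
TFRC site 2: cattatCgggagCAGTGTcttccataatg
TFRC site 3: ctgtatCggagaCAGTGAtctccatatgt
TFRC site 4: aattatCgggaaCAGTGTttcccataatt
SLC11A2 had 1 match with 4 of 5 stem pairs in its 3′ untranslated region, at chr12:50988269-50988297 on the minus strand.
SLC11A2: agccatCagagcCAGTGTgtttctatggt

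All 5 stem pairs (G with T allowed) closed in the 5′ untranslated region of 0.159% of the 12604 tested genes with such a region annotated, and in the 3′ untranslated region of 0.61% of the 12789 with that region. With 4 pairs also allowed, the gap lying next to the bulge, the shares were 0.333% and 1.43%. FTH1 held a stem with all 5 pairs in its 5′ untranslated region, and IREB2 held 1 with 4 pairs in its 3′ untranslated region. HEPH, CYBRD1, ACO1 and FLVCR1 gave no match, which says only that these letters were not found there. The element was in 5 of 6 complete coding transcripts of FTH1, in 5 of 11 of SLC11A2 and in all 3 of TFRC. FTL and SLC40A1 each had 1 such transcript, which held it, so the annotation used could not show forms without it. The table gives 1 total per gene, so mRNAs with and without the element could not be separated for FTH1 or SLC11A2.

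**Figure D1:**
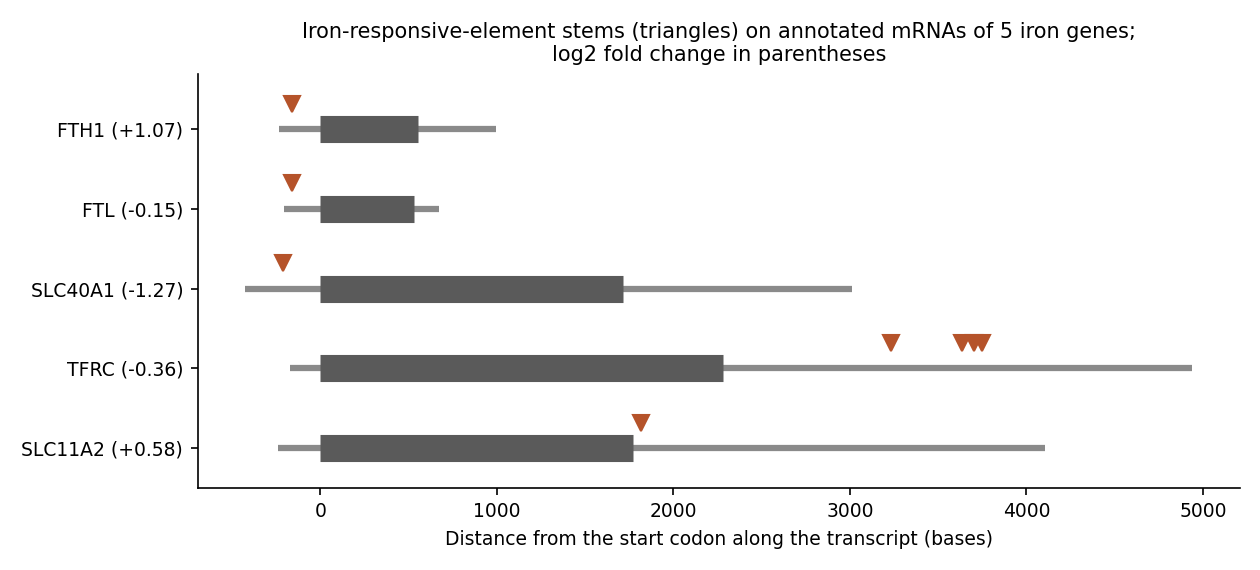
Each row is an annotated mRNA drawn in bases from its start codon, with the coding sequence as a thick bar, untranslated regions as thin lines and matched stems as triangles; log2 fold changes (antisense-labelled over vector control) stand beside the names. The 3 mRNAs with an upstream stem had values of 1.07, -0.15 and -1.27, and TFRC and SLC11A2, with downstream stems, had -0.36 and 0.58. IREB2, whose downstream stem has 4 pairs and is not drawn, had 0.14 and did not pass.

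Total counts were between 40351394 and 57979037 per library. The count for FABP1 did not fall in the antisense-labelled group: it had 134, 147 and 122 CPM there (counts per 1000000 counts of the library, scaled by TMM) and 138, 102 and 121 CPM in vector control libraries. Its log2 fold change was 0.16 (SE 0.12, edgeR adjusted p = 0.268), so the group is named by its label alone. The strand setting of the counting is not given, so reads of the antisense construct could not be told apart from those of the gene. Whether the gene's own mRNA fell was therefore not tested. All 10 intestinal epithelial markers had a row in the table, which alone does not show expression. Their summed level was 15456 to 18359 CPM in antisense-labelled and 13695 to 17037 CPM in vector control libraries. Most of it came from the keratin genes KRT8 (means 9447 and 8666 CPM) and KRT18 (means 4427 and 3661 CPM). Of the 9 tested, 5 rose and 2 fell (KRT19 and VIL1), and CDX1 was under 1 CPM in both groups. LGALS4 averaged 12.8 CPM in antisense-labelled and 0.455 CPM in vector control libraries, and KRT20 averaged 5.35 and 0.587 CPM. The intestinal regulator gene CDX2 averaged 164 CPM in antisense-labelled and 77.0 CPM in vector control libraries (log2 fold change 1.09). Markers of erythroid cells summed to 2.84 to 4.18 CPM in antisense-labelled and 2.97 to 4.01 CPM in vector control libraries, with HBB and ALAS2 at 0 counts in all 6 libraries. Macrophage markers summed to 38.4 to 41.9 CPM in antisense-labelled and 31.3 to 36.2 CPM in vector control libraries, with PTPRC and MARCO at 0 counts in all; 2 rose (CD68 and CSF1R) and CD14 fell. Fibroblast markers summed to 31.5 to 35.6 CPM in antisense-labelled and 39.4 to 42.3 CPM in vector control libraries, with COL1A2 and DCN at 0. Behind these sums 2 fibroblast markers rose and 2 fell: LUM had 18.1 CPM in antisense-labelled and 0.133 CPM in vector control libraries, and PDGFRA had 0.386 CPM in antisense-labelled and 22.7 CPM in vector control libraries. Hepatocyte markers, some of which Caco-2 cells also make, summed to 1562 to 1749 CPM in antisense-labelled and 2645 to 2964 CPM in vector control libraries, with HAMP at 0. Of these 2 rose and 4 fell: SERPINA1 had 1239 CPM in antisense-labelled and 2251 CPM in vector control libraries, and CPS1 had 77.6 CPM in antisense-labelled and 4.73 CPM in vector control libraries. The part of these levels in the iron genes was not tested.

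Of the 10 iron genes, 3 rose, 4 fell and 3 did not pass in the antisense-labelled libraries. The genes that rose were FTH1, HEPH and SLC11A2, and those that fell were CYBRD1, SLC40A1, ACO1 and TFRC. A gene was called at an adjusted p under 0.05 in edgeR's quasi-likelihood test, adjusted over all 14640 tested genes. By that rule 55.0% of all tested genes were called, 27.7% as higher and 27.3% as lower, against 7 of 10 here. The groups did not overlap in 7 of the 10, against 62.7% of all tested genes. A change of at least 2-fold was called in 4 of the 10 (CYBRD1, HEPH, SLC40A1 and FTH1), against 14.9% of all tested genes. The median log2 fold change was -0.02 over the 10 genes and 0.01 over all tested genes, and the median absolute value was 0.49 against 0.36. Since no label states separate cultures within a group, the spread behind each p-value may be technical.

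**Figure D2:**
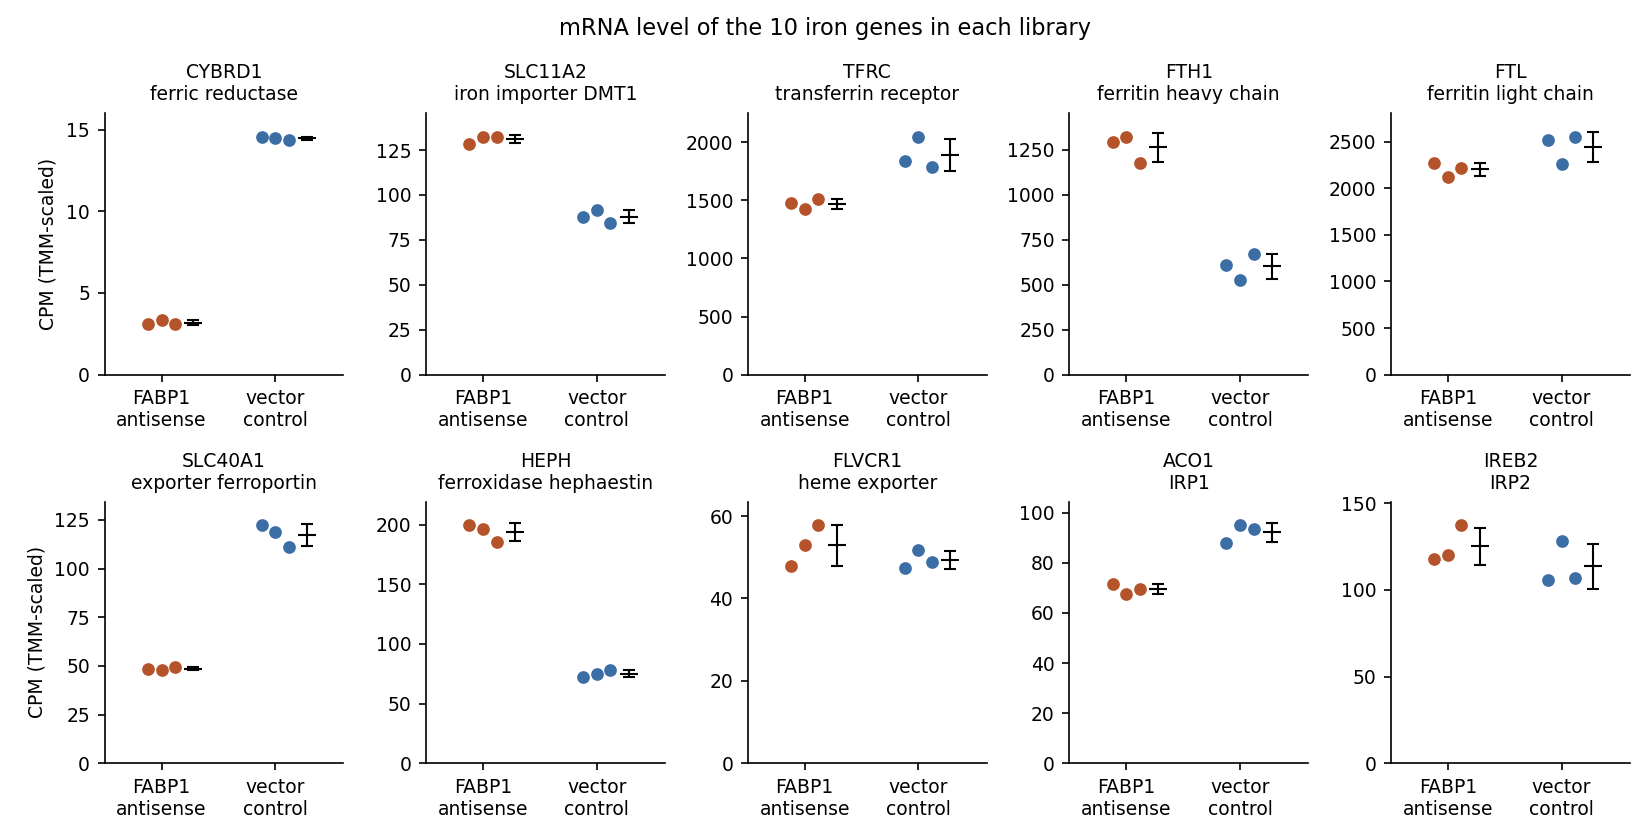
Points are the levels of each gene in CPM in libraries 2, 3 and 4 of each group, with the mean and SD in black and every axis starting at 0. The groups lie apart for 7 genes and overlap for FTL, FLVCR1 and IREB2.

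CYBRD1, the duodenal ferric reductase, had the largest change of the set. Its level was 3.11, 3.35 and 3.08 CPM in antisense-labelled libraries 2, 3 and 4, against 14.6, 14.5 and 14.4 CPM in vector control libraries 2, 3 and 4. Every antisense-labelled library lay far below every vector control library. Group means were 3.18 ± 0.153 and 14.5 ± 0.0916 CPM (SD, n = 3 each), a fall of 4.55-fold (log2 fold change -2.19, SE 0.09, edgeR adjusted p = 3.00e-07). The values rest on 451 counts over the antisense-labelled group and 2046 over the vector control. Among all tested genes 6.04% had a larger absolute log2 fold change.

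SLC11A2, the proton-coupled importer of ferrous iron, rose by a smaller amount. It had 128, 132 and 132 CPM in antisense-labelled libraries, against 87.7, 91.5 and 84.4 CPM in vector control libraries, and the groups did not overlap. Means were 131 ± 2.27 and 87.9 ± 3.58 CPM (SD, n = 3 each), 1.49-fold higher (log2 fold change 0.58, SE 0.06, edgeR adjusted p = 0.000107).

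TFRC, which takes up transferrin-bound iron, fell by 0.36 on the log2 scale (SE 0.06, edgeR adjusted p = 0.00139). Its levels were 1474, 1422 and 1508 CPM in antisense-labelled libraries and 1834, 2045 and 1788 CPM in vector control libraries. The groups did not overlap, and the means of 1468 ± 43.3 and 1889 ± 137 CPM (SD, n = 3 each) differed 1.29-fold.

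The 2 ferritin genes differed in what they did. FTH1, the heavy chain with the iron-oxidising centre, had 1294, 1321 and 1173 CPM in antisense-labelled libraries and 611, 526 and 668 CPM in vector control libraries. All antisense-labelled values were above all vector control values. Means were 1262 ± 78.8 and 601 ± 71.3 CPM (SD, n = 3 each), 2.1-fold higher (log2 fold change 1.07, SE 0.09, edgeR adjusted p = 2.11e-05). FTL, the light chain that promotes mineral formation in the shell, had 2266, 2123 and 2215 CPM in antisense-labelled libraries and 2513, 2257 and 2551 CPM in vector control libraries. These groups overlapped through vector control library 3, and FTL did not pass (log2 fold change -0.15, SE 0.06, 95% interval -0.29 to -0.01, edgeR adjusted p = 0.0671). Without vector control library 3 it passed at -0.20 (edgeR adjusted p = 0.0142).

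Because both chains were counted in the same library, their ratio does not depend on library scaling. The count ratio of FTH1 to FTL was 0.571, 0.622 and 0.529 in antisense-labelled libraries and 0.243, 0.233 and 0.262 in vector control libraries. The groups did not overlap, and the ratio was 2.33-fold higher in antisense-labelled libraries (log2 difference 1.22; two-sided exact permutation p = 0.1, the smallest that 3 against 3 allows). With FTH1 and FTL at the levels given above, the ratios of the groups could not overlap. This p was thereby fixed and is no separate result. Scaled by transcript length, the same ratio put FTH1 at 29.1 ± 1.67% of the ferritin total in antisense-labelled and 14.9 ± 0.752% in vector control libraries (SD, n = 3 each). The summed level of both chains was 3634, 3493 and 3477 CPM per kilobase in antisense-labelled libraries and 3359, 2998 and 3448 CPM per kilobase in vector control libraries. Means were 3535 ± 86.3 and 3268 ± 238 CPM per kilobase (SD, n = 3 each); the groups did not overlap, though the lowest antisense-labelled library lay close to the highest vector control library, and this sum was not tested.

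The count ratio of TFRC to FTH1, an uptake mRNA to a storage mRNA, was 1.14, 1.08 and 1.29 in antisense-labelled libraries and 3.004, 3.89 and 2.68 in vector control libraries. The log2 difference was -1.44. In every antisense-labelled library FTH1 lay above and TFRC below all vector control values, so the ratios of the groups could not overlap. The two-sided exact permutation p = 0.1, again the smallest possible, was thereby fixed and is no separate result. Ferritin genes have many processed copies in the genome, so the authors' counting could split reads among them. The table held FTH1P3 with 36 counts over the antisense-labelled and 22 over the vector control group, and FTH1P18 and FTLP10 at 0. Adding these counts to the parent genes left both log2 differences at 1.22 and -1.44, and counts this low could not have moved them. Reads lost to copies without a row in the table, or left uncounted, could not be checked in this way. In GENCODE, exons of BEST1 overlap FTH1 on the opposite strand; BEST1 had 141 counts over the antisense-labelled and 15 over the vector control group, against 178323 and 85286 for FTH1.

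SLC40A1, the exporter of ferrous iron, fell. Its levels were 48.6, 47.7 and 49.6 CPM in antisense-labelled libraries and 122, 119 and 111 CPM in vector control libraries, with no overlap. Means of 48.6 ± 0.949 and 117 ± 5.83 CPM (SD, n = 3 each) gave a fall of 2.41-fold (log2 fold change -1.27, SE 0.07, edgeR adjusted p = 1.16e-06). HEPH, which oxidises iron as it leaves through ferroportin, moved in the other direction. It had 199.6, 197 and 186 CPM in antisense-labelled libraries and 72.6, 74.9 and 78.0 CPM in vector control libraries, and the groups were well apart. Means of 194 ± 7.22 and 75.2 ± 2.70 CPM (SD, n = 3 each) made it 2.58-fold higher (log2 fold change 1.37, SE 0.07, edgeR adjusted p = 6.67e-07). FLVCR1 had 47.9, 53.0 and 57.8 CPM in antisense-labelled libraries and 47.3, 51.8 and 48.9 CPM in vector control libraries. These values overlapped, and the gene did not pass (log2 fold change 0.10, SE 0.09, 95% interval -0.09 to 0.30, edgeR adjusted p = 0.349).

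Of the iron regulatory proteins, ACO1 fell and IREB2 did not pass. ACO1, which is a cytosolic aconitase when it holds an iron-sulfur cluster and IRP1 when it does not, had 71.8, 67.7 and 69.7 CPM in antisense-labelled libraries and 88.0, 95.03 and 93.6 CPM in vector control libraries. The groups did not overlap (log2 fold change -0.40, SE 0.07, edgeR adjusted p = 0.000971). IREB2 had 118, 120.3 and 137 CPM in antisense-labelled libraries and 106, 128 and 107 CPM in vector control libraries, with overlap. Its log2 fold change was 0.14 (SE 0.10, 95% interval -0.08 to 0.36, edgeR adjusted p = 0.252), and it passed without vector control library 3 (0.24, edgeR adjusted p = 0.0445).

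**Figure D3:**
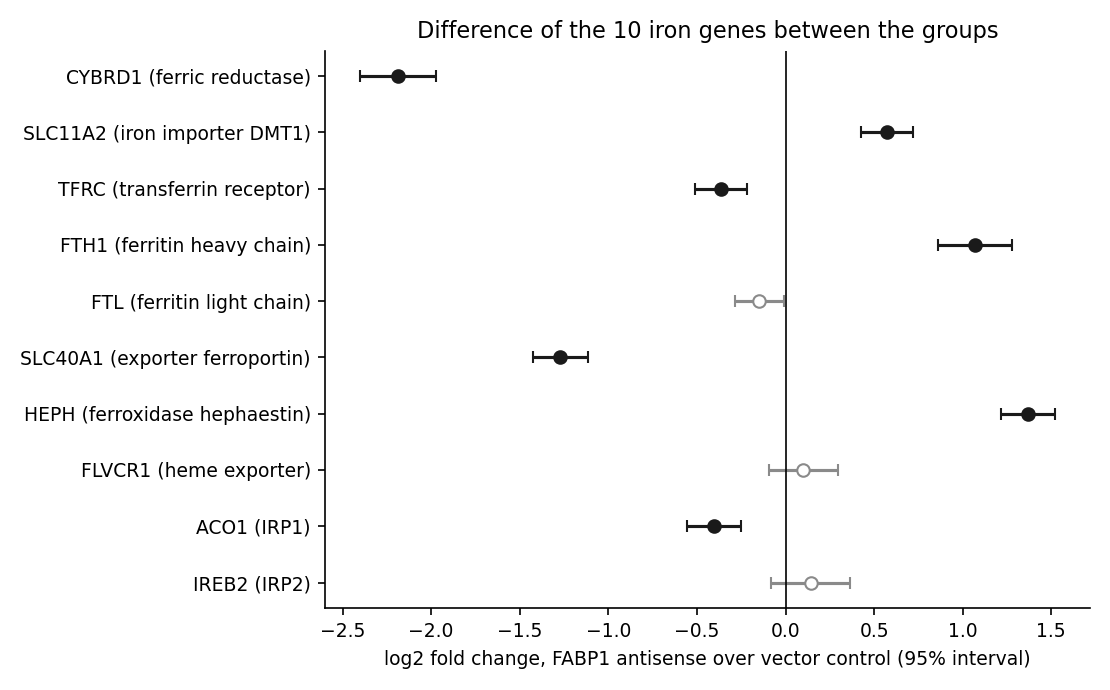
Points are log2 fold changes of antisense-labelled over vector control libraries with 95% intervals, filled where the adjusted p was under 0.05. CYBRD1 stands lowest at -2.19 and HEPH highest at 1.37, and the 3 open points are FTL, FLVCR1 and IREB2.

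Levels of different genes were compared per kilobase of transcript, using the median length of the GENCODE transcripts matched to each gene. In antisense-labelled libraries the order was FTL (2507 CPM per kilobase), FTH1 (1027), TFRC (292), SLC11A2 (57.0), HEPH (45.4), IREB2 (23.3), SLC40A1 (14.1), ACO1 (12.6), FLVCR1 (8.90) and CYBRD1 (0.898). No neighbours in this order overlapped over the 3 libraries. FTL ranked 7 among the tested genes with a length in antisense-labelled libraries and 4 in vector control libraries. In vector control libraries the order was FTL (2779 CPM per kilobase), FTH1 (489), TFRC (375), SLC11A2 (38.3), SLC40A1 (34.1), IREB2 (21.1), HEPH (17.6), ACO1 (16.6), FLVCR1 (8.30) and CYBRD1 (4.09). There HEPH and ACO1 overlapped and the other neighbours did not. HEPH thus stood above SLC40A1 in antisense-labelled libraries, with 43.5 to 46.8 against 13.9 to 14.4 CPM per kilobase, and below it in vector control libraries, with 17.0 to 18.3 against 32.2 to 35.5 CPM per kilobase. TFRC, SLC11A2, HEPH, ACO1, IREB2 and CYBRD1 have more than 1 matched transcript, so these orders depend on the length used.

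Each iron gene was also set beside its neighbours on the chromosome, up to 50 tested genes on either side whose mean log2 CPM reached 3. For CYBRD1, SLC40A1, FTH1 and HEPH the neighbours' median log2 fold changes were -0.04, -0.02, -0.13 and 0.11, and the genes lay -2.15, -1.25, 1.20 and 1.26 away from them. SLC11A2 on chromosome 12 stood among neighbours that were mostly higher (79 of 100 above 0, median 0.31), and its distance from their median was 0.26. ACO1 stood -0.59 from neighbours with a median of 0.19, of which 58 of 82 were above 0. TFRC stood -0.28 from a median of -0.08, or -0.19 from a median of -0.17 with 25 neighbours on either side. FTL stood -0.07 from a median of -0.08, IREB2 stood -0.09 from a median of 0.24, and FLVCR1 stood 0.28 from a median of -0.18. The part of these neighbouring shifts in the values of the iron genes was not tested.

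**Figure D4:**
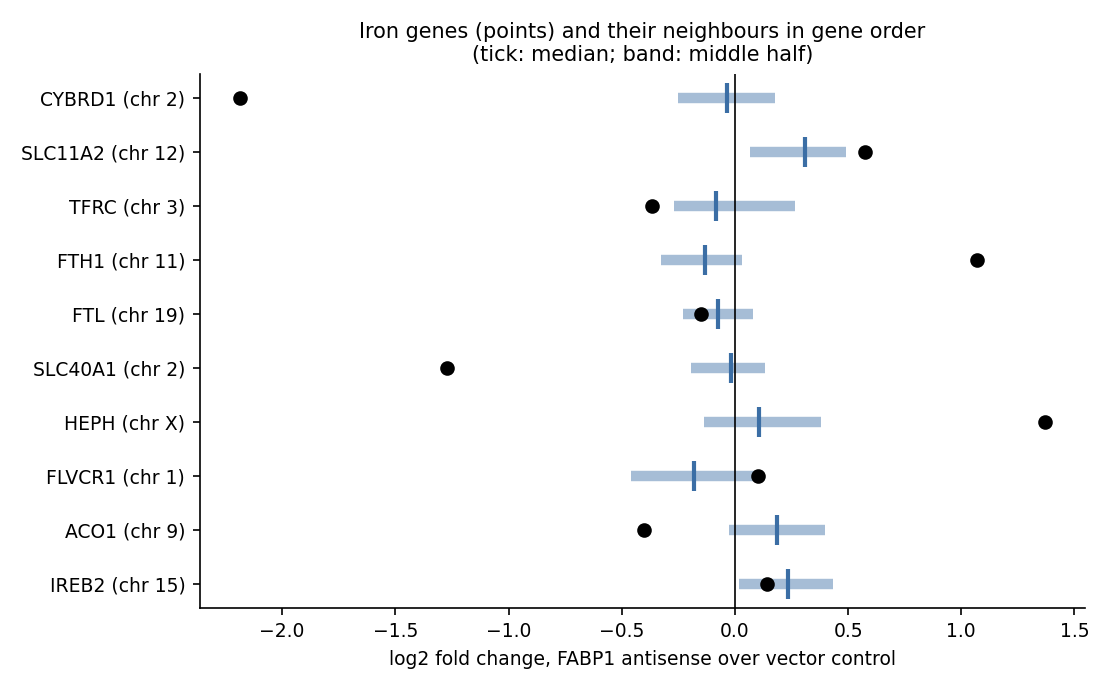
Points are the log2 fold changes of the 10 iron genes, and for each the tick and band show the median and the middle part, from the lower to the upper quartile, of its neighbours in gene order on the same chromosome. CYBRD1, SLC40A1, FTH1, HEPH and ACO1 stand clear of the band, SLC11A2, TFRC and FLVCR1 just outside it, and FTL and IREB2 inside it. With up to 25 neighbours on either side, not drawn, TFRC (-0.36) lay inside its band of -0.39 to 0.11.

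The wider iron, heme and iron-sulfur pathways were counted in 10 lists. Outside the 10 iron genes they held 126 genes, of which 113 were tested, 36 rose, 26 fell and 51 did not pass. The share called, 54.9%, was close to the 55.0% of all tested genes, and the median log2 fold change was 0.05 against 0.01, so the lists as a whole give no result beyond that background. The background for each list count below is the 27.7% of all tested genes called higher and the 27.3% called lower. No list was tested as a set. The list named for the iron-responsive element held few tested genes besides the iron genes already described. Of these EPAS1, which is also in the list of hypoxia-inducible control, rose, and CDC14A and CDC42BPA did not pass.

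**Figure D5:**
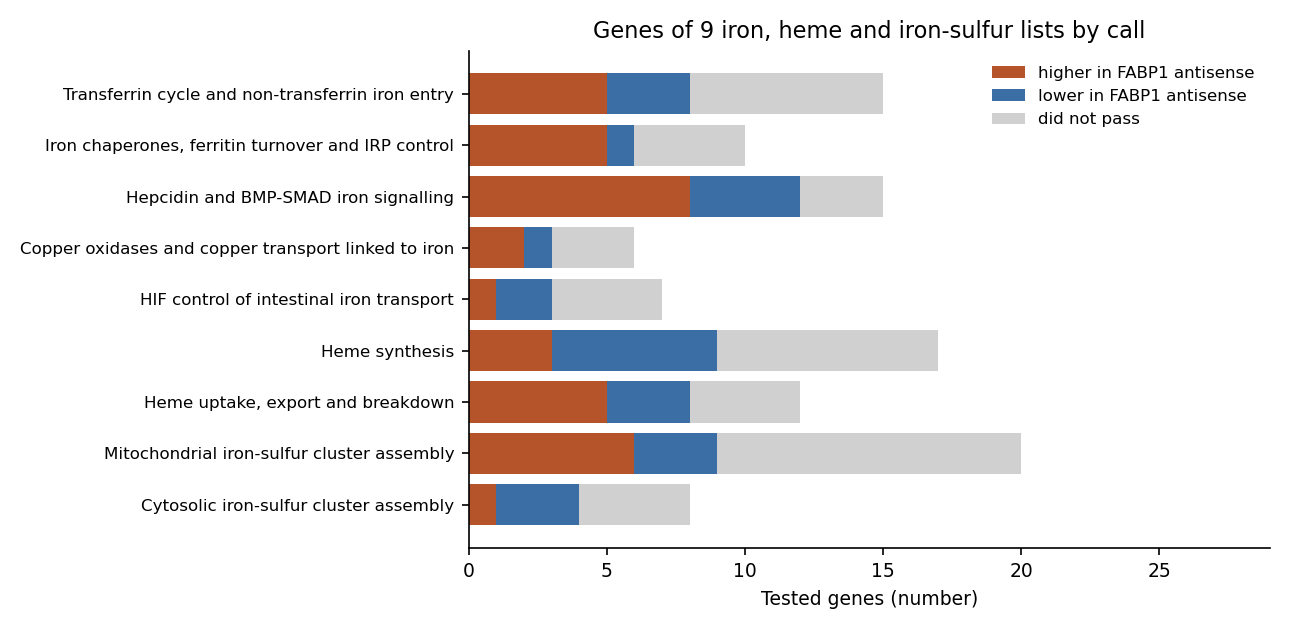
Bars count the tested genes of 9 lists that were higher, lower or did not pass in antisense-labelled relative to vector control libraries. Every list held both directions, with 5 higher and 3 lower in the transferrin cycle list and 3 higher and 6 lower in heme synthesis.

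In the list of the transferrin cycle and other iron entry, 5 of 15 tested genes rose and 3 fell (median log2 fold change 0.03). The metalloreductase gene STEAP2 had 26.3 ± 3.82 CPM in antisense-labelled and 0.440 ± 0.152 CPM in vector control libraries (SD, n = 3 each; log2 fold change 5.92, SE 0.20, edgeR adjusted p = 8.2e-08). Its neighbour STEAP1 had 41.8 ± 2.21 and 4.202 ± 0.526 CPM (SD, n = 3 each; 3.32, SE 0.11), and reads could be split between it and the similar gene STEAP1B. STEAP3, the ferrireductase of the transferrin cycle, did not pass (-0.15, SE 0.08). HFE, a partner of the transferrin receptor, rose by 0.86 (SE 0.10), and the endocytic receptor gene LRP2 fell by 0.90 (SE 0.09). Transferrin itself (TF) was too low to be tested.

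Among iron chaperones and genes of ferritin turnover, 5 of 10 rose and 1 fell (median 0.22). NCOA4, the receptor that delivers ferritin to lysosomes, had 203 ± 7.70 CPM in antisense-labelled and 142 ± 12.2 CPM in vector control libraries (SD, n = 3 each; log2 fold change 0.51, SE 0.08). BDH2, reported to make a siderophore-like molecule, rose by 1.17 (SE 0.11) and FAM96A (CIAO2A) by 0.82 (SE 0.09). PCBP1, which loads iron into ferritin, fell by 0.26 (SE 0.07), while PCBP2 of the same family rose by 0.23 (SE 0.07). FBXL5, the iron-sensing ligase component that removes IRP2, did not pass (-0.13, SE 0.09). The count of rises was 3 without antisense-labelled library 2 or without vector control library 2.

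In the list of hepcidin and BMP-SMAD signalling, 8 of 15 rose and 4 fell (median 0.27), against 27.7% and 27.3% of all tested genes. HAMP, the gene of the hormone hepcidin, and HFE2 had 0 counts in all 6 libraries. Genes that rose included SMAD1 (1.22, SE 0.09), ACVR1 (0.91, SE 0.11) and the ligand gene BMP2 (0.66, SE 0.09). ERFE also rose (2.24, SE 0.42), on 139 counts over the antisense-labelled and 29 over the vector control group. SMAD6 rose by 0.75 (SE 0.24) with overlapping groups. The genes that fell were TMPRSS6 (-2.33, SE 0.27), the receptor gene BMPR2 (-0.60, SE 0.12), ID1 (-0.56, SE 0.08) and ACVR2A (-0.34, SE 0.08). TMPRSS6 had 92 counts over the antisense-labelled and 458 over the vector control group. The count of rises was 5 without antisense-labelled library 2, without antisense-labelled library 3 or without vector control library 2.

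Copper is needed by hephaestin. Of 6 tested copper genes 2 rose and 1 fell (median 0.12): the copper ATPase gene ATP7A, known to supply copper to secreted enzymes in the intestine, had 19.0 ± 0.506 CPM in antisense-labelled and 5.94 ± 0.582 CPM in vector control libraries (SD, n = 3 each; log2 fold change 1.68, SE 0.10). ATP7B, the liver-type copper ATPase gene, fell by 0.98 (SE 0.15), and APP rose by 0.49 (SE 0.06). Ceruloplasmin (CP) and HEPHL1, the other ferroxidases of the hephaestin family, were too low to be tested.

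Of 7 tested genes of hypoxia-inducible control, 1 rose and 2 fell (median -0.11). EPAS1 (HIF-2α), known in mouse intestine to activate the genes of the importer, the reductase and the exporter, had 104 ± 4.12 CPM in antisense-labelled and 75.2 ± 3.61 CPM in vector control libraries (SD, n = 3 each; log2 fold change 0.47, SE 0.07). Its partner ARNT fell by 0.88 (SE 0.08) and the oxygen sensor gene EGLN1 by 0.47 (SE 0.07).

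Heme synthesis genes fell in 6 of 17 cases and rose in 3 (median -0.09). ALAS1, the first enzyme of the pathway, rose by 0.68 (SE 0.07) and CLPX, a mitochondrial protease subunit that acts on it, by 0.45 (SE 0.08). ABCB6, a porphyrin transporter, fell by 1.25 (SE 0.11) and PPOX by 0.71 (SE 0.15). In heme uptake, export and breakdown 5 of 12 rose and 3 fell (median 0.22). BLVRA, which turns biliverdin into bilirubin, had 2.05 ± 0.242 CPM in antisense-labelled and 13.96 ± 0.407 CPM in vector control libraries (SD, n = 3 each; log2 fold change -2.77, SE 0.12). The porphyrin exporter gene ABCG2 rose by 1.96 (SE 0.11), HMOX2 by 0.71 (SE 0.09) and BACH1, a heme-sensing repressor known to act on ferritin genes, by 0.68 (SE 0.11). The inducible heme oxygenase gene HMOX1 did not pass (-0.07, SE 0.10).

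Of the iron-sulfur cluster genes, 11 of 20 in the mitochondrial list and 4 of 8 in the cytosolic list did not pass. In the mitochondrial list 6 of 20 rose and 3 fell (median 0.02): ISCU, the assembly scaffold, rose by 0.73 (SE 0.07) and the chaperone gene HSPA9 by 0.49 (SE 0.05), while BOLA1 fell by 0.57 (SE 0.15) and FDXR by 0.57 (SE 0.10). In the cytosolic list 1 of 8 rose and 3 fell (median 0.02). CIAPIN1 rose by 0.41 (SE 0.07), and NARFL, NDOR1 and CIAO1 fell by 0.32, 0.29 and 0.25 (SE 0.10, 0.09 and 0.07). That count of 3 was 1 without antisense-labelled library 4, without vector control library 2 or without vector control library 4, so these falls rest on small differences.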

How the data were processed

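Read counts per gene and library, which the authors deposited without normalization, were used as deposited. Build GRCh37 and the tools HISAT2 2.1.0, StringTie 1.3.4d, Trimmomatic 0.38 and Bowtie2 2.3.4.1 are listed, without roles, in the submitters' processing notes; no source used here gives the strand setting of the counting. The other 12 per-library columns were not used, because headers match groups only and 1 measure per group could be kept. Header numbers are 2 to 4, while the labels number replicates 1 to 3. Genes were filtered with filterByExpr (14640 kept), scaled by TMM and tested with edgeR 4.0.16 (glmQLFit, glmQLFTest) in R 4.3.3, with p-values adjusted by the Benjamini-Hochberg method. The SE is the absolute log2 fold change over the square root of F. Libraries of 1 group differed beyond counting noise (chi-square over its degrees of freedom 13.98 to 40.1). Same-numbered libraries did not deviate together (correlations 0.04, -0.22 and -0.37), so no pairing was used. DESeq2 1.42.0 was an alternative. The code was tested on simulated counts.

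The 10 genes, the lists and the tests were chosen with earlier results of these data known. Text names all 10 genes, FABP1, and in each list up to 4 genes with the largest changes that passed at a mean log2 CPM of at least 1 without overlap; other list genes were named after their values were seen. GENCODE release 29 gave transcript lengths (96.4% of tested genes) and sequences, and RefSeq (GRCh38.p14) the gene order without coordinates. Other steps used Python 3.11.15.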

Additional observations from a re-analysis of the deposited data

How the results depend on the processing

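The 7 iron genes called kept their direction and passed under every alternative run: DESeq2 size factors, library size only, no filter on low counts, the DESeq2 test, the replicate block on header numbers, and leaving out each of the 6 libraries in turn. FTL and IREB2 passed only without vector control library 3 (ranges without 1 library -0.20 to -0.12 and 0.067 to 0.24). Ranges without 1 library were 0.98 to 1.15 for FTH1, -2.22 to -2.16 for CYBRD1, 1.16 to 1.28 for the log2 ratio of FTH1 to FTL and -1.55 to -1.29 for that of TFRC to FTH1. List counts moved by over 1.5 times when 1 library was left out: rises ranged from 3 to 5 for chaperones and ferritin turnover and from 5 to 8 for hepcidin and BMP-SMAD signalling, and falls from 1 to 3 for cytosolic iron-sulfur assembly. The same falls were 0 with the replicate block. With 25 neighbours on either side the neighbours' medians were -0.17 for TFRC, 0.21 for ACO1 and 0.27 for IREB2; the causes were not tested. At 451 counts, CYBRD1 is the least deeply counted of the 10.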
